A study of Homo sapiens with 8 samples.

Results

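The scramble control cancer stem cells (CSCs) were the baseline of an RNA-Seq study of N-cadherin and connexin 43 in breast cancer dormancy. They make up 3 of the 8 libraries and were chosen by their label alone, and what follows describes the levels of their genes. All 8 libraries came from MDA-MB-231, a triple-negative human breast cancer line of mesenchymal type. The line carried GFP under the regulatory region of Oct4a, an isoform of the pluripotency factor POU5F1, under G418 selection. A vector that carried RFP and an shRNA was added under puromycin selection, with scramble shRNA in 3 libraries, CDH2 shRNA (against N-cadherin) in 3 and Cx43 shRNA (against connexin 43) in 2. In every group the cells highest in GFP and in RFP were sorted and kept overnight in culture before total RNA was isolated and depleted of ribosomal RNA. The CDH2 knockdown line was a selected clone, and the sources used here do not say whether the scramble and Cx43 lines were clones. No unsorted or GFP-low cells were analysed here, so no level below is set against the remaining cells of the line. Nothing in the labels says that the 3 scramble libraries came from separate cultures, so their spread may be technical.

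CSCs are the cells of a tumor that can renew themselves and seed it again, and in breast cancer they are often sought by a CD44-high, CD24-low surface. Cells that pass through an epithelial-mesenchymal transition (EMT) lose E-cadherin and much of their keratin network, gain vimentin and N-cadherin, and are driven by the repressors of the ZEB, SNAI and TWIST families. Dormant cells rest outside the cell cycle, held there by CDK inhibitors and the retinoblastoma family, whereas cycling cells transcribe the replication and mitosis genes together.

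The deposited values are log2(CPM + 1), where CPM is the usual depth-scaled count, for 12939 genes. Turned back, the genes of a scramble library sum to between 684411 and 703508 CPM. The values hold no counts and the depth of the libraries is unknown, so precision rests on the replicates. To compare genes, each level was divided by the length of the gene's exons, which gives CPM per kilobase for 12247 genes. The median gene was at 5.07 CPM per kilobase, and the top 10% of genes were at 26.8 or more. A gene's percentile below is its place among these 12247 genes.

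The 3 replicates did not vary independently. Scramble 1 deviated from the mean of the group by 0.0047 on average on the log2 scale, against 0.111 for scramble 2 and 0.110 for scramble 3. It lay between the other two in 96.4% of genes, and its largest deviation in any gene was 0.068, against 0.81 for scramble 2. Added up over the groups, the deviations of libraries with the same replicate number came to 1e-04 or less, so a deviation of scramble 3 is the negative of the deviation of CDH2 knockdown 3. An SD over the 3 libraries is therefore in effect a measure of the distance between scramble 2 and scramble 3. That distance also holds deviations of the knockdown libraries with the same replicate numbers. The median SD over genes was 0.0958, the 90th percentile was 0.221, and 357 genes (2.76%) had an SD over 0.3. Pearson's r across genes, which are not independent replicates, was 0.997 between scramble 1 and each of the others and 0.987 between scramble 2 and scramble 3.

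Among the genes with a value, the most abundant transcripts were the 2 copies of 7SL. This RNA is the scaffold of the signal recognition particle, which guides secreted proteins to the endoplasmic reticulum. RN7SL2 was at 12.90, 12.95 and 12.81 in scramble 1, 2 and 3, which is 25260 ± 1272 CPM per kilobase (mean ± SD, n = 3, as for every such value below). RN7SL1 was at 11.98, 12.00 and 11.90, or 13310 ± 472 CPM per kilobase. Their transcripts in GENCODE v44 are 98.3% identical over 300 aligned positions, so the split of reads between them is uncertain.

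The next RNAs per kilobase were also structured and noncoding. RN7SK, which holds the elongation factor P-TEFb inactive, was at 10.84, 11.17 and 10.52 (5698 ± 1285 CPM per kilobase). RPPH1, the RNA of ribonuclease P, followed at 5203 ± 452 and RMRP, the RNA of ribonuclease MRP, at 2997 ± 110. These 5 RNAs together made up 2.33%, 2.42% and 2.16% of the summed CPM of scramble 1, 2 and 3. The highest mRNAs were TMSB10, which encodes an actin-sequestering thymosin (2580 CPM per kilobase), FTL, the ferritin light chain (2369), and GAPDH of glycolysis (1369). ACTG1 and ACTB, the cytoplasmic actins, were at 686 and 616 CPM per kilobase, and the cytokine MIF was at 654. EEF1A1P5 (2011) and RPL13AP5 (990) are listed among the highest genes, but EEF1A1P5 is 99.7% identical to EEF1A1 over 1389 aligned bases, so reads of elongation factor 1A can be counted to either. Per gene without a length, the order was RN7SL2, AL139099.4, RN7SL1, GAPDH, EEF1A1, EEF1A1P5, ACTG1, ACTB, MYH9 and FLNA, from 7579 down to 2545 CPM. AL139099.4 had 4009 CPM and no match in the annotation.

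The summed CPM of the genes with a value was not dominated by a few genes. RNAs without a value are outside this sum, so their share of a library is unknown. The 10 genes with the highest CPM held 5.13% ± 0.06 of the sum, the first 100 held 16.7% and the first 1000 held 46.0%. Protein-coding genes (11287) made up 92.0%, 91.8% and 92.3% of the sum, 344 long noncoding RNAs 0.886% on average, and 564 pseudogenes 2.35%. The 85 cytosolic ribosomal protein genes held 4.23%, 4.61% and 3.83%, and the 13 mitochondrial mRNAs held 0.801%, 0.594% and 1.01%. Scramble 2 was highest for ribosomal proteins and lowest for mitochondrial mRNAs, and scramble 3 was the reverse. After the authors' correction such a difference cannot be told apart from one between the knockdown libraries of the same replicate numbers.

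The identity of the cells was checked against the defining markers of the line. Each of VIM, CD44, AXL, MSN, CAV1, FOSL1 and LGALS1, which mark its mesenchymal state, lay in the top 10% of genes, from the 90.3th percentile for CAV1 to the 99.85th for LGALS1. The epithelial adhesion molecule EPCAM was at 2.63, 2.66 and 2.59, the 25.2th percentile, and ERBB2 (HER2) was at 5.33, 5.22 and 5.42, the 40.6th percentile. The keratins KRT18 and KRT8, however, were at the 98.5th and the 95.4th percentile, and 4 of the 13 luminal epithelial genes analysed were in the top 10%. CAV1 is also a member of the basal list. ESR1, PGR, CDH1 and KRT19 were not analysed here, and neither were CDH2 and GJA1, so the knockdowns could not be checked on RNA. The paper reports Western blots of both target proteins in the knockdown lines. Across 25 lists of genes, 873 distinct genes were looked up and 648 were analysed. A gene that was not analysed is given no level, and nothing is read from it. Medians of a list cover its analysed genes only, and the authors had removed genes of low value. They therefore do not stand for the whole list, above all where few members were analysed.

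**Figure D1:**
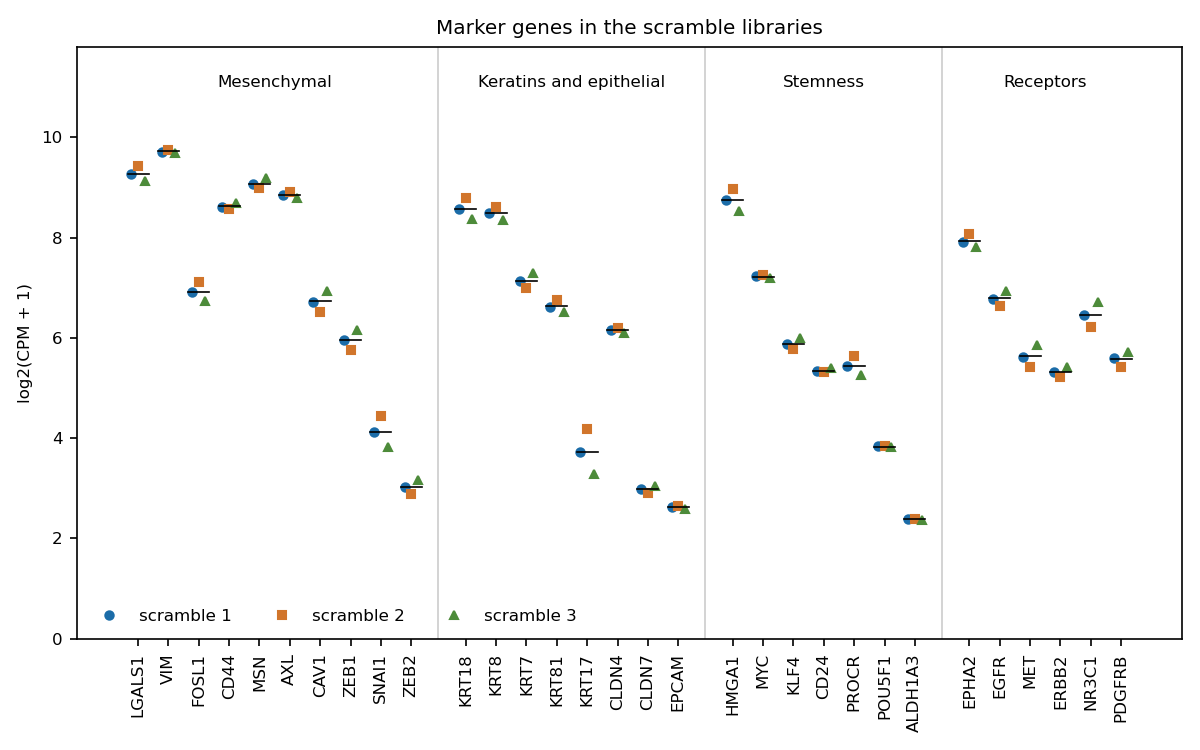
Marker genes in the 3 scramble libraries, as log2(CPM + 1) on the vertical axis with 1 point for each library and a line at the mean. Levels are not divided by length, so a gene is compared between libraries and not with its neighbors, and the blue points of scramble 1 sit on the line in nearly every gene while scramble 2 and scramble 3 lie on opposite sides.

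**Figure D2:**
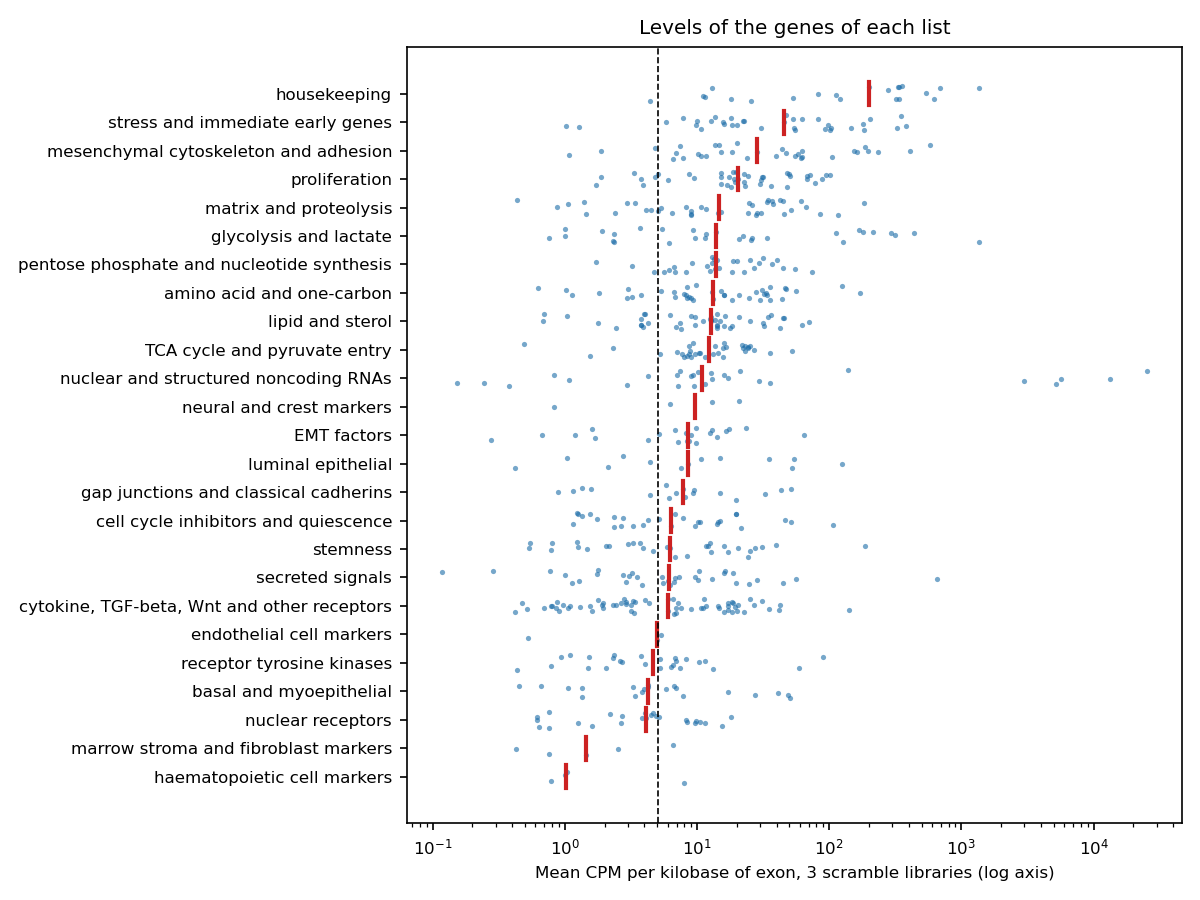
Level of each analysed gene of the 25 lists, as the mean CPM per kilobase of exon over the 3 scramble libraries on a log axis, with a red bar at the list's median and a dashed line at the median of all genes (5.07). In 19 lists the median lies above the dashed line, with housekeeping, stress and mesenchymal genes highest and haematopoietic markers lowest.

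Mesenchymal cytoskeleton and adhesion genes were among the highest lists, with 33 of 39 analysed, a median percentile of 90.7 against 50 for all genes, and 17 members in the top 10%. VIM, the intermediate filament of mesenchymal cells, was at 9.71, 9.76 and 9.68, or 163 ± 4.0 CPM per kilobase. LGALS1, a galactose-binding lectin, was at 9.28, 9.42 and 9.12 (581 ± 60.8), and S100A6, a calcium-binding protein, was at 8.64, 8.57 and 8.70 (409 ± 19.5). Of these 3 genes LGALS1 differed most between libraries, by 0.30, and its SD of 0.15 was above the median of 0.0958 over all genes. In the list, 4 of the 33 genes were higher by over 0.3 in scramble 2 and 7 in scramble 3. Of all 12939 genes, 1750 and 1781 were. FLNA (234 CPM per kilobase), EZR (187), MYH9 (154) and ACTN4 (104), which cross-link actin or tie it to the membrane or to myosin, were all above the 98th percentile. At the low end of the list were the integrin subunits ITGB3 (1.89) and ITGA2 (1.07). Because these are bulk libraries, a low level in every cell and a high level in a few cells cannot be told apart, here and below.

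Simple epithelial keratins stood beside vimentin rather than far under it. KRT18 was at 8.57, 8.78 and 8.36 (125 ± 18.3 CPM per kilobase), KRT8, its partner in the filament, at 8.48, 8.61 and 8.35 (51.9 ± 4.5), and KRT7 at 35.1 ± 3.5. VIM exceeded KRT18 by 0.39 ± 0.18 in log2 CPM per kilobase, and it did so in 3 of 3 libraries, while KRT18 exceeded KRT8 by 1.26 ± 0.09. With the longest and the canonical transcript as the length KRT18 exceeded KRT8 by 0.55 and 0.43. An SD of a ratio covers the libraries and not the choice of length, which moved 15 of 28 pairs of genes by over 1.5-fold. Of 40 luminal epithelial genes only 13 were analysed, and their median percentile was 66.2, which does not stand for the whole list. Beyond the keratins the highest was XBP1 (54.5), a factor of the secretory pathway. The tight junction proteins were lower and in the order CLDN4 (14.9 ± 0.5), CLDN7 (2.76 ± 0.17) and OCLN (1.05 ± 0.15), with no overlap between them. The 27 luminal genes not analysed here include ESR1, PGR, GATA3, FOXA1, CDH1, ESRP1, ESRP2, GRHL2, OVOL1, CLDN3 and ERBB3.

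Among 32 basal and myoepithelial genes 20 were analysed, and their median percentile (44.3) lay under that of all genes with the union of exons as the length. It lay above, at 53.7 and 55.3, with the longest and the canonical transcript, so the side of the median gene is not settled. KRT81, a hair keratin, was highest at 6.62, 6.75 and 6.52 (50.9 ± 4.1 CPM per kilobase), followed by the checkpoint protein SFN (48.5), the laminin chain LAMB3 (41.3) and CAV1 of caveolae (27.3). KRT17 was at 3.72, 4.18 and 3.29 (4.23 ± 1.39), a range of 0.88 that is wide for these libraries. KRT5, KRT14, TP63, ACTA2 and 8 further genes of the list were not analysed here. Reads of KRT81 can be shared with other hair keratins of close sequence, so its level is uncertain.

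The EMT factors were moderate in level. Of 28 listed, 22 were analysed, with a median percentile of 66.4 and 1 member in the top 10%, the AP-1 subunit FOSL1 at 6.92, 7.12 and 6.73 (64.0 ± 8.6 CPM per kilobase). ZEB1 was at 5.96, 5.77 and 6.16 (7.14 ± 0.99) and ZEB2 at 3.03, 2.89 and 3.17 (0.276 ± 0.030), so that ZEB1 was higher by 4.69 ± 0.04 in log2 CPM per kilobase, and by 3.71 and 3.74 with the longest and the canonical transcript. SNAI1 was at 4.12, 4.44 and 3.83 (9.83 ± 2.22) and SNAI2 at 4.79, 4.70 and 4.91 (8.19 ± 0.61), which do not differ beyond their spread. The Hippo effectors YAP1 (16.4) and WWTR1 (6.87) and their DNA-binding partners TEAD4 (23.4) and TEAD1 (13.0) were all above the median gene. Among TGF-beta ligands TGFB2 (14.2) exceeded TGFB1 (8.99) in 3 of 3 libraries, by 0.64 ± 0.33, and TGFB3 was at 0.668. TWIST1, TWIST2, PRRX1, FOXC2, FOXQ1 and TCF4 were not analysed here.

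Matrix and proteolysis genes were high, with 40 of 49 analysed, a median percentile of 79.8 and 16 in the top 10%. CCN1, a matricellular protein, was at 9.42, 9.30 and 9.50 (184 ± 12.9 CPM per kilobase). The metalloprotease inhibitors TIMP1 (67.0), TIMP3 (61.0) and TIMP2 (37.0) stood beside the membrane protease MMP14 (51.1), whereas the gelatinase MMP9 was at 2.40. Collagen VI chains COL6A2 (44.8) and COL6A1 (37.6) exceeded COL6A3 (0.438) and the fibrillar chain COL1A1 (1.46). The list was also the least stable between libraries, its median percentile running from 74.1 to 86.3 over the 3. FN1, fibronectin, was at 7.85, 7.21 and 8.53, so that scramble 3 was 1.32 above scramble 2 on the log2 scale. MMP1, MMP2, MMP3, MMP13, COL1A2 and COL3A1 were not analysed here.

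Stemness genes spread over the whole range, with 31 of 48 analysed and a median percentile of 56.7. HMGA1, an architectural chromatin protein, was highest at 8.75, 8.96 and 8.54 (186 ± 27.6 CPM per kilobase). The surface glycoprotein CD44 was at 8.62, 8.56 and 8.68 (39.3 ± 1.7) and CD24 at 5.33, 5.31 and 5.39 (12.8 ± 0.4). CD44 was thus higher than CD24 by 1.62 ± 0.02 in log2 CPM per kilobase, in 3 of 3 libraries, while CD24 itself lay at the 76.9th percentile. Of the reprogramming factors MYC was at 24.2 ± 0.5 CPM per kilobase and KLF4 at 15.9 ± 1.3. POU5F1, whose regulatory region drives the reporter used to sort the cells, was at 3.84, 3.84 and 3.82 (4.57 CPM per kilobase), the 47.1th percentile. POU5F1 has pseudogenes of close sequence, so its level is uncertain. PROCR, a receptor used to mark mammary stem cells, was at 25.1 and NOTCH2 at 30.8, against 3.26 for NOTCH1. ALDH1A3, TERT and HMGA2 were at 0.788, 0.544 and 0.537, all under the 8th percentile. SOX2, NANOG, ALDH1A1, PROM1, ABCG2, ABCB1, LIN28B and 10 further genes were not analysed here.

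Among receptor tyrosine kinases 26 of 48 were analysed, with a median percentile of 47.0, so the class as a whole was near the median gene while 2 members stood out. AXL, the receptor for GAS6, was at 8.84, 8.91 and 8.78 (89.4 ± 4.1 CPM per kilobase), and the ephrin receptor EPHA2 was at 7.92, 8.06 and 7.80 (58.7 ± 5.3). The next, PTK7, was at 13.3, and the gap between EPHA2 and PTK7 was far wider than the spread of either. EGFR was at 6.78, 6.63 and 6.94 (6.88 ± 0.74) and MET at 5.62, 5.43 and 5.87 (6.81 ± 1.06), which do not differ beyond their spread. AXL exceeded MET by 3.73 ± 0.29 in log2 CPM per kilobase, and EGFR exceeded ERBB2 by 0.86 ± 0.06. MST1R (0.437) and CSF1R (0.782) were the lowest analysed. ERBB3, ERBB4, FGFR2, KIT, PDGFRA, RET and 16 further kinases were not analysed here.

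Of 45 nuclear receptors 25 were analysed, none in the top 10%. The highest were the orphan receptors NR2F6 (17.9 ± 1.2 CPM per kilobase) and ESRRA (15.5 ± 0.5). NR3C1, the glucocorticoid receptor, was at 6.46, 6.21 and 6.72 (9.63 ± 1.71), and VDR was at 4.64. The remaining receptors, of cytokines, TGF-beta, Wnt and other signals, had 65 of 85 genes analysed and a median percentile of 55.6. TNFRSF12A, the receptor for TWEAK, led with 7.99, 8.12 and 7.87 (141 ± 12.2), ahead of PLXNB2 (42.2), NRP1 (41.8) and TNFRSF21 (34.8). The TGF-beta receptors TGFBR1 and TGFBR2 were at 7.21 ± 1.05 and 6.88 ± 1.13. Within libraries TGFBR1 over TGFBR2 was 0.07 ± 0.03 in log2 CPM per kilobase, above 0 in 3 of 3. With the canonical transcript the mean was -0.23, so their order is not settled. IL6ST, the shared chain of the interleukin 6 family, was at 18.4, while IL6R was at 0.796. CXCR4, ACKR3, TACR1, CCR7, SMO and 15 further receptors were not analysed here.

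Secreted signals had 34 of 49 genes analysed, a median percentile of 55.9 and 4 in the top 10%. After MIF, the acute-phase protein SAA1 was at 5.90, 6.16 and 5.67 (56.3 ± 9.7 CPM per kilobase), the EGFR ligand HBEGF at 44.7 and the vasoactive peptide ADM at 28.4. LIF (24.8), CSF1 (19.7), IL11 (18.8) and VEGFA (16.1) followed. CXCL8, which recruits neutrophils, was at 1.97, 1.85 and 2.12 (1.14 ± 0.15), the 12.4th percentile. SAA1 and SAA2 are close copies, so their reads may be shared.

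Junction genes were split between the catenins and the connexins. Of 30 listed 17 were analysed. CTNNA1 and CTNNB1, which tie cadherins to actin, were at 43.5 ± 3.8 and 32.6 ± 2.6 CPM per kilobase. Among cadherins CDH11 was at 6.70, 6.40 and 7.01 (7.88 ± 1.66) and CDH4 at 5.72, 5.91 and 5.55 (6.96 ± 0.89), and CDH3, P-cadherin, was at 1.35 ± 0.22. The connexins GJA3 and GJC1 were low, at 1.15 ± 0.12 and 0.886 ± 0.042, which is the 12.5th and the 8.9th percentile. The channel protein PANX1 was higher, at 14.99 ± 0.30.

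All 5 metabolic lists were above the median gene, with median percentiles from 76.1 to 78.8. In glycolysis, 29 of 37 genes were analysed and 10 were in the top 10%. GAPDH was at 11.68, 11.70 and 11.66, ENO1 at 441 ± 10.0 CPM per kilobase, ALDOA at 312 ± 8.1, TPI1 at 296 ± 2.2 and PKM at 213 ± 2.2. Among isoenzymes ALDOA exceeded ALDOC by 5.84 ± 0.21 in log2 CPM per kilobase, ENO1 exceeded ENO2 by 4.40 ± 0.11, and HK1 exceeded HK2 by 1.46 ± 0.09. The glucose carrier SLC2A1 exceeded SLC2A3 by 1.81 ± 0.11. SLC16A3, which exports lactate, exceeded SLC16A1 by 4.71 ± 0.22, since SLC16A1 was at 2.87, 2.73 and 3.01 (0.998 ± 0.112 CPM per kilobase). Each of these held in 3 of 3 libraries and under each definition of gene length tried, while their size moved. With the longest and the canonical transcript HK1 exceeded HK2 by 2.17 and 2.32, ENO1 exceeded ENO2 by 4.84 and 5.05, and SLC16A3 exceeded SLC16A1 by 5.11 and 5.78. LDHA and LDHB were at 167 ± 17.6 and 181 ± 8.8, and which was higher differed between libraries. A sign test with 3 libraries cannot give a p under 0.25, so none is given for any pair.

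**Figure D3:**
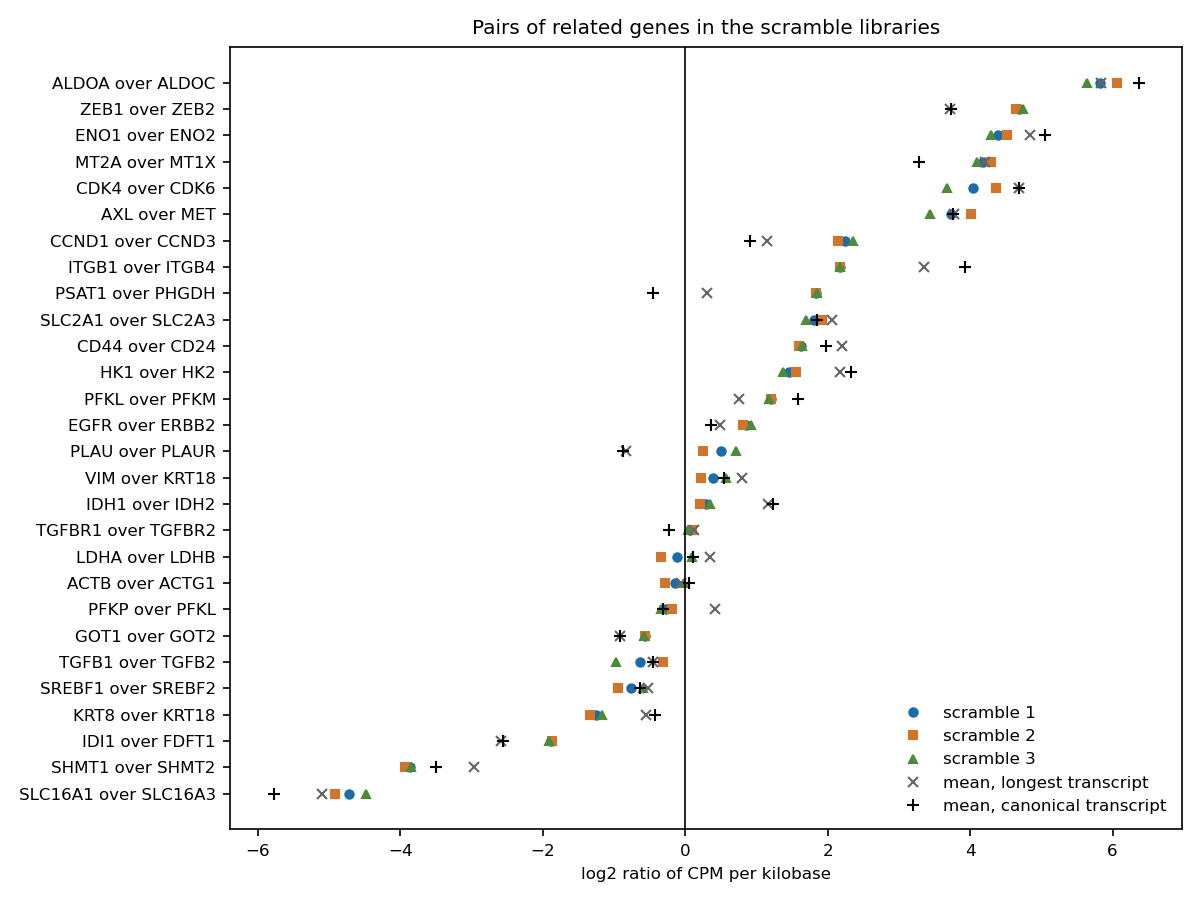
Log2 ratio of CPM per kilobase between the genes of 28 pairs, with 1 colored point for each scramble library, crosses for the mean with the longest transcript as the length and plus signs for the mean with the canonical transcript. Points right of 0 mean that the first gene named is higher, and for PSAT1 over PHGDH, PLAU over PLAUR, PFKP over PFKL, LDHA over LDHB, ACTB over ACTG1 and TGFBR1 over TGFBR2 the sign depends on the length used.

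Mitochondrial and biosynthetic metabolism was covered more fully. All 34 genes of the TCA cycle and pyruvate entry were analysed, and 31 of them lay in the upper part of the range, above the median gene, with ACLY (52.7 ± 4.0 CPM per kilobase), MDH2 (35.9) and SDHC (26.8) highest. Of the 31 genes of the pentose phosphate pathway and nucleotide synthesis 30 were analysed, led by thymidine kinase TK1 (74.5 ± 12.0), TALDO1 (55.4) and TKT (44.4). The amino acid list had 41 of 44 genes analysed. Its highest were transporters, the glutamine carrier SLC1A5 at 9.14, 9.28 and 9.03 (171 ± 15.4), the leucine carrier SLC7A5 at 9.22, 9.23 and 9.24 (126 ± 0.8) and SLC3A2, the heavy chain that pairs with SLC7A5 (56.0 ± 5.0). The mitochondrial enzyme of serine turnover, SHMT2, exceeded the cytosolic SHMT1 by 3.88 ± 0.04 (2.96 and 3.50 with the longest and the canonical transcript). PSAT1 exceeded PHGDH by 1.84 with the union of exons and fell by 0.46 below it with the canonical transcript, so their order is not settled. In lipid and sterol metabolism, with 45 of 47 genes analysed, ACADVL (69.9), SCD (62.1 ± 19.3) and FASN (42.3 ± 5.7) were high and CPT1B (0.686) and ACACB (0.697) low. SCD, the fatty acid desaturase, was at 8.32, 7.84 and 8.75, so scramble 3 was above scramble 2 by 0.91.

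Replication and mitosis genes were abundant in these cells. All 41 proliferation genes were analysed, with a median percentile of 85.9 and 16 in the top 10%. PCNA, the sliding clamp of DNA polymerase, was at 7.14, 7.35 and 6.95 (101 ± 14.1 CPM per kilobase), CCND1, cyclin D1, at 8.80, 8.83 and 8.79 (93.9 ± 1.3) and MKI67 at 8.29, 8.41 and 8.19 (24.5 ± 1.9). TPX2 (88.9), UBE2C (77.9), CCNB1 (72.1) and MCM7 (68.3), which act in the spindle, in mitotic proteolysis, at mitotic entry and at replication origins, were above the 96th percentile. CDK4 exceeded CDK6 by 4.02 ± 0.34, and CCND1 exceeded CCND3 by 2.25 ± 0.10. With the longest and the canonical transcript CCND1 exceeded CCND3 by 1.15 and 0.91, and CDK4 exceeded CDK6 by 4.69 with both. Genes of cell cycle arrest and quiescence, with 29 of 32 analysed, had a median percentile of 57.0. TXNIP, an inhibitor of glucose uptake, was at 8.59, 8.29 and 8.87 (108 ± 21.6), and the stress-induced GADD45A and GADD45B were at 51.9 and 46.2. The CDK inhibitors CDKN1A and CDKN2C were at 14.4 ± 2.6 and 14.96 ± 0.49, and CDKN1B was at 2.75 ± 0.33. RB1 was at 6.82 and RBL2 at 1.75. CDKN2A, CDKN2B and GAS1 were not analysed here.

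All 35 stress and immediate early genes were analysed, with a median percentile of 94.6 and 19 in the top 10%. The median percentile was 91.9 with the longest transcript, 89.9 with the canonical transcript and 86.05 with no length. The chaperones HSP90AA1 (10.91, 11.19 and 10.63), HSPA8 (10.70, 10.94 and 10.50) and HSP90AB1 (9.92, 10.01 and 9.84) were between 326 and 382 CPM per kilobase. HSPA1B, the inducible HSP70, was at 205 ± 56.3, and its near-identical copy HSPA1A at 18.1 ± 8.3, a split of reads that is uncertain. The metal-binding MT2A was at 185 ± 28.3, IER3 at 181 ± 12.1, ATF4, the factor of the integrated stress response, at 147 ± 0.8, and EGR1 at 8.30, 7.91 and 8.64 (101 ± 25.2). FOS (22.6) and ATF3 (22.5) were lower, and EGR2 (1.28) and EGR3 (1.03) lowest.

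The analysed markers of other cell types ranged from low to moderate. Of 24 haematopoietic markers 4 were analysed, with a median percentile of 10.9, CD68 at 7.98 ± 0.11 CPM per kilobase, ITGAM at 1.05, ITGAX at 1.01 and CSF1R at 0.782, and the defining PTPRC, CD3E and HBB were not analysed here. Of 12 endothelial markers 3 were analysed, with a median percentile of 49.5, ROBO4 at 5.36, ESAM at 4.99 and PECAM1 at 0.527. Marrow stroma and fibroblast markers had 5 of 17 analysed, with a median percentile of 16.7, PDGFRB highest at 6.60 ± 0.69 and LEPR lowest at 0.428, while DCN, LUM, PDGFRA and CXCL12 were not analysed here. Neural and crest markers had 4 of 15 analysed, with a median percentile of 67.0, close to the 66.2 of the luminal list, and ENO2 and TUBB3 were highest at 20.9 and 13.1.

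The difference between scramble 2 and scramble 3 followed the length of the transcript. After the authors' correction, deviations of libraries with the same replicate number cancel across the groups. The differences below therefore cannot be assigned to the scramble libraries rather than to knockdown libraries of the same numbers. Across 12247 genes, which are not independent, Spearman's rho between the canonical length and scramble 2 minus scramble 3 was -0.52. The median difference was 0.25 for the 1066 genes under 1 kilobase, 0.17 from 1 to 2, 0.02 from 2 to 4, -0.14 from 4 to 8 and -0.21 for the 1038 genes over 8 kilobases. All 85 cytosolic ribosomal protein genes were higher in scramble 2, with a median of 0.32, as were 75 of 78 mitochondrial ribosomal protein genes, 70 of 73 nuclear subunits of oxidative phosphorylation and 47 of 51 histone genes. Of the proliferation genes, 39 of 41 were higher in scramble 2, with a median of 0.28. All 13 mitochondrial mRNAs, which are short, went the other way and were higher in scramble 3, with a median difference of -0.70. MT-CO1 was at 10.76, 10.35 and 11.10 and MT-ND4L at 6.21, 5.57 and 6.73. Over all genes, 6492 were higher in scramble 2 and 6447 in scramble 3. The widest spread among genes with a mean of at least 3 was in the heat shock gene HSPA6, at 3.32, 4.14 and 2.60, then ARC (SD 0.67), EDIL3 (0.67), FN1 (0.66), HSPA1A (0.66) and GADD45G (0.64).

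**Figure D4:**
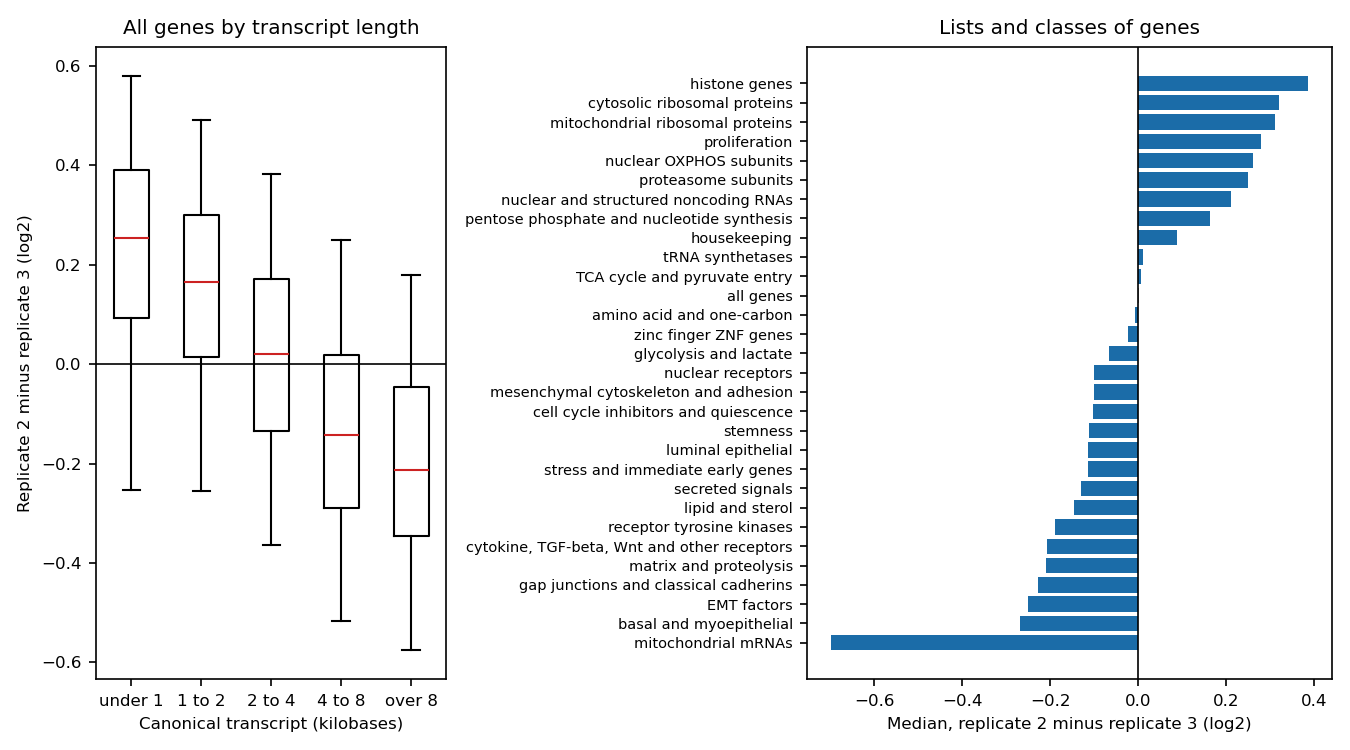
Scramble 2 minus scramble 3 on the log2 scale, a difference that the authors' correction ties to the knockdown libraries of the same replicate numbers. At left the genes are grouped by the length of the canonical transcript, with a box from the lower to the upper quartile, a red line at the median and whiskers from the 5th to the 95th percentile, and the median falls from 0.25 to -0.21. At right each bar is the median over a list or class of genes, from 0.39 for histone genes to -0.70 for mitochondrial mRNAs.

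Promoters were read from RefSeq (GRCh38.p14), from 250 bases before to 50 after the start, for 9296 of the protein-coding genes analysed (13611 promoters). The TATAAA box was found on either strand in 5.92% of them, the CCAAT box in 35.1%, GGGCGG in 67.4% and the CArG box, the site of serum response factor, in 1.16%. Among all 35116 promoters of the table the shares were 11.5%, 34.6%, 45.0% and 1.29%. In the 73 promoters of genes above the 99th percentile the shares were 15.1%, 45.2%, 74.0% and 4.11%, and in the 1122 from the 90th to the 99th they were 9.18%, 40.0%, 71.0% and 1.69%. These are shares of promoters, of which a gene can have several, and the 4.11% rests on few promoters. In the top 10% of genes, promoters were matched for 811 genes from the 90th to the 99th percentile and 58 above it. Of these genes 21 had a CArG box, and the share over all genes was not counted by gene. They are ACTG1, FLNA, ACTN1, CNN2 and TPM4, of actin and its binding proteins, the immediate early gene EGR1, and ISG15, EIF6, GSTP1, RPL24, H2AC20, RPS27A, PPIF, CAPN2, ATP6V1E1, JPT1, NPM3, PLOD1, ANXA7, YBX3 and NDUFB6. No theme was tested among them, and nothing is read from their number without the share over all genes. A match is a description of letters and not a bound site. The promoters of 3 of these, chosen after the matches were seen, are shown since their genes are described above, with the CArG box in capitals: EGR1 at chr5:138465229-138465528 (forward strand, 2 boxes), ACTG1 at chr17:81512750-81513049 (reverse strand, 1 box) and FLNA at chrX:154374585-154374884 (reverse strand, 1 box).
EGR1: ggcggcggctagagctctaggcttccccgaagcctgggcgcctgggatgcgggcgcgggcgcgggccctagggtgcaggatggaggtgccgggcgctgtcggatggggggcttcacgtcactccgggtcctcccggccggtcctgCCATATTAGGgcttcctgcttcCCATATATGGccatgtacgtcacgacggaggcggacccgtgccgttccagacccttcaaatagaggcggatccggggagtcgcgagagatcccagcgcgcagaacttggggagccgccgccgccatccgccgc
ACTG1: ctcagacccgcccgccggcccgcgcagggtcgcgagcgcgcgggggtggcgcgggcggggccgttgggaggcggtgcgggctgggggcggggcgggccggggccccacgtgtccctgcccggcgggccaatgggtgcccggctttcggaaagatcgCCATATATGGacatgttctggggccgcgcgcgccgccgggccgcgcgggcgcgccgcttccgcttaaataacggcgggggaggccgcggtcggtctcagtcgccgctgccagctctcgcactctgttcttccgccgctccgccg
FLNA: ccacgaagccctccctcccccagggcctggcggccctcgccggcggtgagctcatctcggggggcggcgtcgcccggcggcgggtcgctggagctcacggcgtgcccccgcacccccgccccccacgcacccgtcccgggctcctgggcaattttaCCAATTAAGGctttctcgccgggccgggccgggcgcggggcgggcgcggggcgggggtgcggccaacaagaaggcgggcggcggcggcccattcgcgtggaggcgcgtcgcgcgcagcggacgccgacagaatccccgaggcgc

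The scramble libraries were then compared with the knockdowns to see which baseline genes set them apart. The contrast was scramble minus the mean of the CDH2 and Cx43 knockdown group means, in a limma model of all 8 libraries with the replicate number as a block. A gene was called where the fold change reached 1.5 with an adjusted p below 0.05, which 2.72% of the 12939 genes tested did, 215 (1.66%) higher in scramble and 137 (1.06%) lower. The added 1 CPM makes differences of low genes look smaller than they are. After the authors' correction the deviations of the 8 libraries vary in only 2 directions, fewer than the 3 residual degrees of freedom of the model, so each p counts a degree of freedom that the values do not hold. With 2 degrees of freedom 155 genes were higher and 74 lower. The counts hang on single libraries. They were 0 and 0 without Cx43 knockdown 1 and without Cx43 knockdown 2 (2761 and 2915 genes at an unadjusted p under 0.05), 9 and 5 without scramble 1, 77 and 45 without CDH2 knockdown 1, and 400 and 442 without scramble 3 or without CDH2 knockdown 3. Without the replicate block 287 were higher and 201 lower, and these include all 352 genes called with it.

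The genes named next were picked among called genes whose scramble libraries lay outside the range of all knockdown libraries. The largest difference among them was in ACTG2, the smooth muscle gamma actin. It was at 4.14, 4.60 and 3.69 in scramble, 2.27, 1.97 and 2.80 with CDH2 shRNA and 1.39 and 1.23 with Cx43 shRNA. Scramble was higher by 2.31 ± 0.28 (SE, adjusted p = 0.0196). SAA1 and SAA2, the serum amyloids, were higher by 1.87 ± 0.18 and 1.71 ± 0.16 (limma adjusted p = 0.0162 for both). SAA1 was at 5.90, 6.16 and 5.67 in scramble against 3.82 to 4.31 in the 5 knockdown libraries, so the groups did not overlap. The long noncoding RNA PRAL (1.69) and RASD1 (1.53), a small GTPase, followed. Among genes lower in scramble, the cancer-testis antigen MAGEA1 was at 2.21, 2.23 and 2.15 against 3.91 to 4.73 in the knockdown libraries, a difference of -2.14 ± 0.12 (limma adjusted p = 0.0106). LRRC8C, a subunit of the volume-regulated anion channel (-1.40), LINC01029 (-1.39), ADGRG6, an adhesion GPCR (-1.32), and ZNF699 (-1.31) were next. Because the 10 genes were picked by that range, its lack of overlap is no further result about them. Of all genes, 30.4% had a scramble range outside that of the knockdown libraries.

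Of the 648 list genes analysed, 32 (4.94%) were higher in scramble and 6 (0.926%) lower, beside 1.66% and 1.06% of all genes (2.72% in either direction). The lists were chosen with earlier results of these data known, so nothing particular to them is read from these shares. Higher in scramble were 4 basal and myoepithelial genes, KRT17 (by 1.43), CNN1 (1.16), KRT81 (1.06) and ITGB4 (0.74), the calcium-binding proteins S100A4 (1.36) and S100A6 (0.61), the angiopoietin-like ANGPTL4 (1.29) and the chemokine CCL5 (0.88). S100A4 was at 4.59, 4.55 and 4.58 in scramble, 3.25, 2.89 and 3.06 with CDH2 shRNA and 3.16 and 3.55 with Cx43 shRNA. SNAI1 was higher by 1.00 ± 0.21 (limma adjusted p = 0.045), the single EMT factor of 22 to be called. The metalloprotease inhibitors TIMP1 (0.70) and TIMP3 (0.67) were called in the matrix list, ASS1 (0.82), of arginine synthesis, with SLC1A4 and SLC1A3 in the amino acid list, and CD24 (0.62) with NES (0.67) in the stemness list. RN7SK, the highest RNA per kilobase after 7SL, was higher by 1.16 ± 0.21, at 10.84, 11.17 and 10.52 against 9.49 to 9.98 in the knockdown libraries.

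The 6 list genes lower in scramble were CCNE2, cyclin E2 (-0.86), DUSP6 (-0.73), RRM2 (-0.65), CCND2 (-0.64), the Wnt inhibitor DKK1 (-0.60) and EPHA4 (-0.60). CCNE2 was at 3.96, 4.01 and 3.91 in scramble and between 4.73 and 4.90 in the knockdown libraries. CCND2 overlapped with CDH2 knockdown, where it was at 5.10, 5.32 and 5.31, and differed by its level of 6.76 and 6.45 with Cx43 shRNA. Of the 41 proliferation genes, 0 were called higher by limma and 3 lower, beside 1.66% and 1.06% of all genes. At an unadjusted p under 0.05 there were 2 higher and 17 lower, where 14.0% of all genes were higher and 17.6% lower, with a median difference of -0.24, beside -0.02 for all genes. The 7 mesenchymal markers of the line and POU5F1 did not pass the test. LGALS1 differed by 0.49 ± 0.12 and MSN differed by -0.42 ± 0.10, both with a limma adjusted p of 0.059 and no overlap between scramble and knockdown libraries. AXL differed by -0.23 ± 0.08 (adjusted p = 0.122), CAV1 by 0.20 ± 0.15 (0.417), FOSL1 by -0.10 ± 0.13 (0.645), CD44 by 0.07 ± 0.08 (0.585), VIM by 0.01 ± 0.07 (0.954) and POU5F1 by 0.12 ± 0.08 (0.354). CD24, in contrast, was among the genes called. Of the glycolysis and TCA lists 0 genes were called by limma in either direction, beside 2.72% of all genes, with 5 higher and 4 lower in glycolysis and 2 higher and 5 lower in the TCA cycle at an unadjusted p under 0.05, and median differences of 0.01 and -0.02. These counts are near or under the shares of all genes just given. For the 13 mitochondrial mRNAs, which encode subunits of the respiratory chain, the median difference was -1.07. None reached the adjusted threshold in limma, with 0 called in either direction, and 12 had an unadjusted p under 0.05, each lower in scramble, where 17.6% of all genes were lower at that p. MT-CO1, a subunit of cytochrome c oxidase, was at 10.76, 10.35 and 11.10 in scramble and at 11.99, 11.70, 11.29, 11.65 and 12.36 in the knockdown libraries, which did not overlap, and differed by -1.10 ± 0.28 (limma adjusted p = 0.068). A p that misses the threshold does not show that levels were equal.

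**Figure D5:**
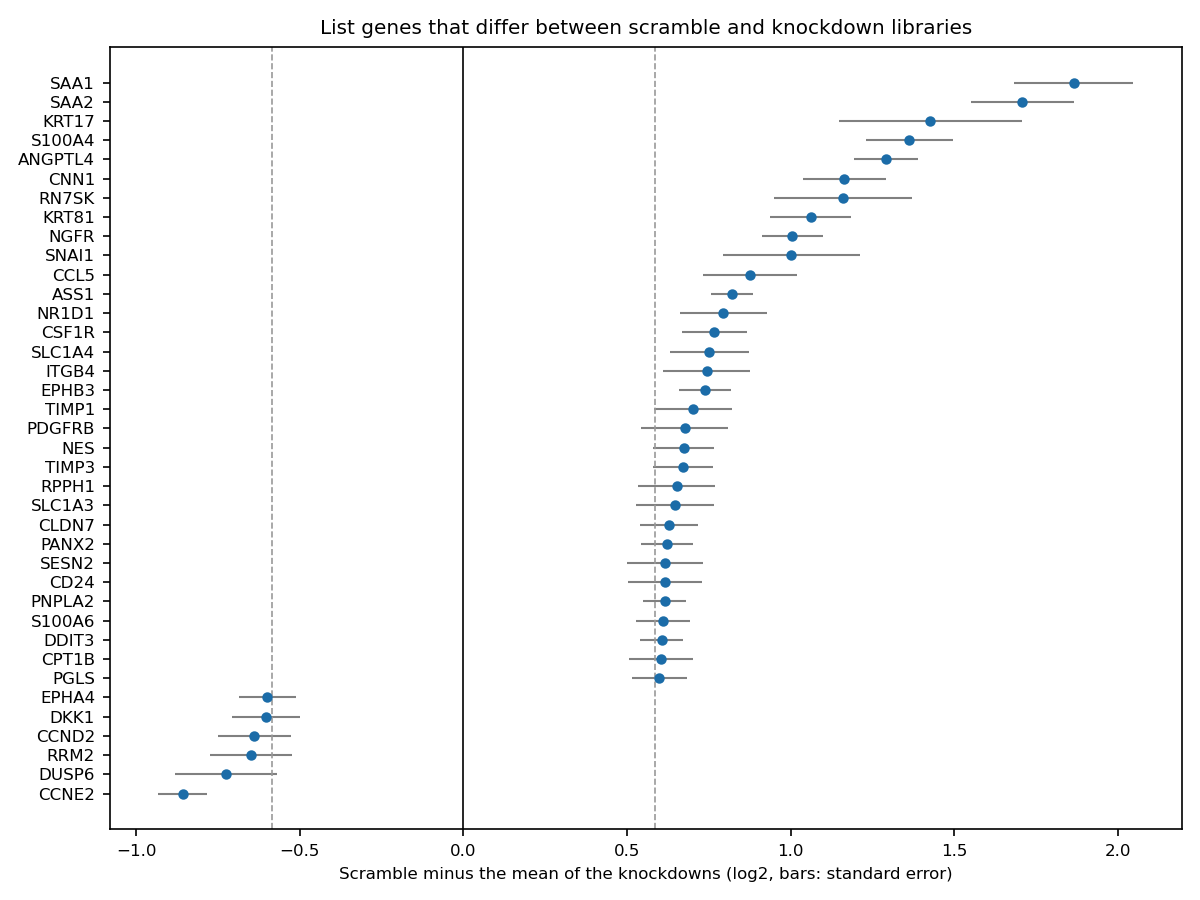
The 38 list genes that passed the test between scramble and knockdown libraries, as scramble minus the mean of the knockdowns on the log2 scale with bars for the standard error and dashed lines at a fold change of 1.5. The 32 genes higher in scramble run from SAA1 at 1.87 down to PGLS at 0.60, and the 6 lower from EPHA4 at -0.60 to CCNE2 at -0.86.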

How the data were processed

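Total RNA of 8 libraries of sorted MDA-MB-231 CSCs was depleted of ribosomal RNA and sequenced. The authors used Partek Flow to align reads to hg38 with an expectation-maximization step, left out a low-quality sample, took log2(CPM + 1), removed a batch effect among the sequencing replicates and removed genes of low value, and the deposited log2 values are the result. The annotation they used is not given in the sources used here. The base of 2 follows from the sums of the values turned back. A line without a gene name was left out, 18 genes are written as dates, and every gene reached at least 2.00 in some library.

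Lengths are the union of exons in GENCODE v44 on hg38, for 11888 genes by symbol and 359 by an older symbol in RefSeq. Levels are the mean ± SD over the 3 scramble libraries, as CPM per kilobase. Lists are described by counts and medians, with no set test. The comparison used lmFit and eBayes of limma 3.58.1 (R 4.3.3) with Benjamini-Hochberg adjustment over 12939 genes, two-sided, with the replicate number of the labels as a block because the authors removed the run effect before the values were deposited. That the numbers pair the libraries was checked on the files, where the deviations from group means sum to 0 within 1e-04 in each number. With the block, 3 residual degrees of freedom remained and limma's prior added 2.84, although the deviations vary in only 2 directions. Changes of 1 on the log2 scale, and none smaller, were simulated with SDs drawn from those between the scramble libraries. In the simulated data the fit called 172 of 200 changed genes and 1 of 12739 unchanged genes. The simulated errors were independent between libraries, unlike the deposited values, so that check does not cover the lost direction. Depth is unknown.

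The genes named are the 15 highest per kilobase, the 10 highest in CPM, the 10 with the widest spread at a mean of at least 3, the highest, lowest and defining members of each list, 28 pairs, and the 5 largest differences in each direction. These differences were ranked only among called genes whose scramble range lay outside that of all knockdown libraries. The lists and the members of the group were chosen with earlier results of these data known. Alternatives were other lengths, scalings, filters, pseudocounts, fold changes and a reference of protein-coding genes, no block, a mean-variance trend, equal weights and leaving out each library. The canonical transcript as the length and 2 residual degrees of freedom were added after the data had been seen. A few members of the lists are not reported here.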

Additional observations from a re-analysis of the deposited data

How the results depend on the processing

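The number of genes called in the comparison of scramble with the knockdowns, 215 higher and 137 lower, depended most on single libraries and ran from 0 to 400 higher and from 0 to 442 lower when a library was left out. Without scramble 3 and without CDH2 knockdown 3 the counts were the same, because these are the only libraries with that replicate number and a block with a single library adds nothing to the contrast. With the 75% of genes of highest mean 106 were higher and 78 lower, at a fold change of 1.3 the counts were 488 and 447, at 2 they were 37 and 12, and with 2 residual degrees of freedom they were 155 and 74. Without the replicate block the fit called 287 higher and 201 lower. The remaining alternatives (quantile normalization, centring on the median, a pseudocount of 0.1, a mean-variance trend and equal weights) gave 178 to 279 higher and 116 to 179 lower. The median SD between replicates was 0.0958 among the scramble libraries and 0.174 over all 8 samples, and 0.0676 to 0.135 without a scramble replicate. The number of lists above the median gene was 18 to 20 of 25 under each alternative, but not the same lists. With the longest transcript basal genes came above it (median percentile 53.7, from 44.3) and cytokine and other receptors (47.7, from 55.6) and cell cycle inhibitors (48.0, from 57.0) came under it. With no length receptor tyrosine kinases came above it (62.6, from 47.0) and secreted signals under it (35.1, from 55.9), with the canonical transcript basal genes came above it (55.3), and without scramble 3 endothelial markers did (51.7, from 49.5). The sign of the log2 ratio turned for PFKP over PFKL (0.42 with the longest transcript), LDHA over LDHB (0.35 with the longest and 0.11 with the canonical transcript), PLAU over PLAUR (-0.83 and -0.88), and, with the canonical transcript, PSAT1 over PHGDH (-0.46), ACTB over ACTG1 (0.053) and TGFBR1 over TGFBR2 (-0.23). These follow from the lengths themselves, and for the other changes the cause was not tested. Levels per kilobase of genes with many or long alternative exons are low with the union of exons.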
